A study of Mus musculus with 8 samples.

Results

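Mesothelial cells of the mouse thymus preparation were picked out of a single-cell data set by their RNA. A cell was taken where at least 2 of the 3 mesothelium genes Msln, Upk3b and Lrrn4 were detected, where the 3 genes together held at least 3 UMIs (unique molecular identifiers, the counted mRNA molecules), and where the cortical epithelial genes Psmb11 and Prss16 together made up less than 0.1% of the cell's UMIs. Of 9953 cells, 101 met this rule. They were 37 and 37 cells in the 1-week libraries (replicates 1 and 2) and 7 and 20 cells in the 16-week libraries, so 73.3% were of 1 week and 27 cells were of 16 weeks.

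The data came from CITE-seq, which counts the RNA of a cell together with DNA tags carried by antibodies bound to its surface (antibody-derived tags, ADT). Thymic stroma of wild-type C57BL/6 mice of 1 and 16 weeks, with no treatment named, was freed of most CD45-positive cells. It was incubated with 27 tagged reagents and sorted into CD45-negative, Ter119-negative cells, a mixture of EpCAM1-positive and EpCAM1-negative ones that the labels call thymic epithelial cells. Several thymi of an age went into 1 pool that filled 2 wells (replicates 1 and 2), and the SD over these wells therefore reflects capture and library preparation, not mice. An age is therefore 1 sample, no p-value was computed, and the values below are a description. The libraries held 1430 to 4738 cells with 21281389 to 45480790 UMIs each, and 15 cell barcodes occurred in more than 1 library, none of them in a member.

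Mesothelium is the single-layered sheet that lines the pleural, pericardial and peritoneal cavities and covers the organs within them. It has features of both epithelium and connective tissue, since its cells make keratins and cell junctions and also collagens and retinoic acid enzymes, and it is known for lubricating the organ surface and for the transcription factor Wt1. The thymus lies in the upper chest against the pleura and pericardium beneath a capsule of connective tissue. Where the cells lay before the tissue was taken apart was not measured.

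The 4 antibody tags on which the surface comparison turns are shown as the deposited barcode list gives them, 5′ to 3′, each the 15 bases that were read out as 1 count of the antibody. Podoplanin and CD200 were higher on mesothelial cells than on fibroblasts in both 1-week libraries. CD73 was higher than on fibroblasts by a smaller margin, and CD49a was lower.
Podoplanin: gggcgatttagtgtg
CD200: tcaattccggtagtc
CD73: acacttaacgtctgg
CD49a: ccattcatttgtggc

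The members were first checked against 13 mesothelium genes that the rule had not used (Upk1b, Wt1, Bnc1, Gpm6a, Krt7, Krt8, Krt18, Krt19, Muc16, Calb2, Cldn15, Nkain4 and Rspo1). They fell into separate sets by their connective tissue RNA. In 86 members Col1a1, Col1a2, Col3a1 and Dcn together made up 0.360% to 5.29% of UMIs, and in the other 15 they made up 0.00887% to 0.122%. The 86 cells carried 3 to 12 of the 13 genes with a median of 11, and the 15 cells carried 2 to 5 with a median of 3. A 1-week fibroblast carried a median of 3 and at most 9, so its range overlapped that of the 86. The number of genes detected depends on depth. Members of 1 week had medians of 18429 and 24353 UMIs, and fibroblasts 9747 and 8720.

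The 15 cells with little collagen RNA went against the mesothelial label. Epcam, the epithelial adhesion gene, was detected in 14 of them with a median of 20 UMIs, against a median of 0.5 UMIs in the 86. Aire, which drives tissue antigens in medullary epithelium, was detected in 13 of the 15 with a median of 7 UMIs, and in 34 of the 86 with a median of 0. The MHCII tag had a median of 4599 counts on them and of 64 on the 86, and the podoplanin tag 11 against 536.5. Of the 3 rule genes together they held a median of 4 UMIs and the 86 cells 51.5. These 15 cells were 3 and 2 cells in the 1-week libraries and 5 and 5 in the 16-week libraries, so they made up 5 of 7 members in 16-week replicate 1. They were kept in the main values because the rule includes them, and results that rest on them are given with and without them. The 86 cells without them are called collagen-positive members below.

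**Figure D1:**
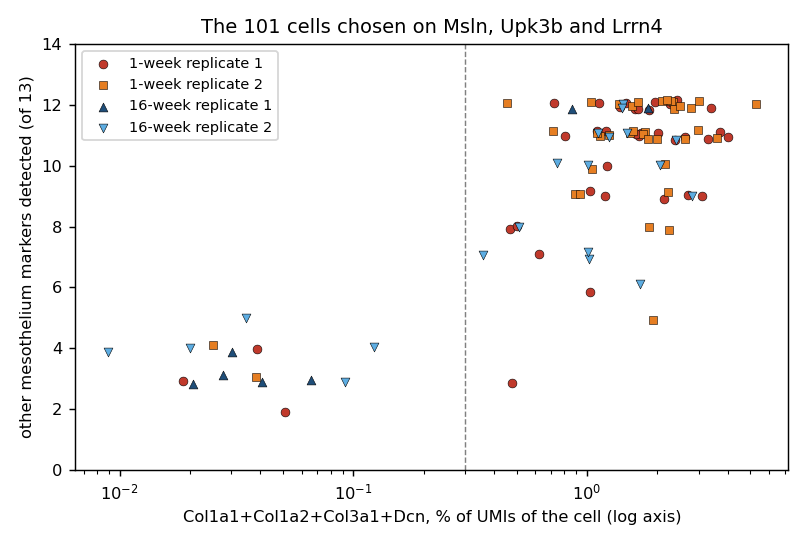
Each point is 1 of the 101 members, with the share of its UMIs on Col1a1, Col1a2, Col3a1 and Dcn on the horizontal log axis and the number of 13 other mesothelium genes detected on the vertical axis (jittered), coloured by library. The 86 members right of the dashed line at 0.3% carry up to 12 of the genes, and the 15 to its left carry 2 to 5.

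Upk3b, a uroplakin of the cell surface, was detected in all 86 collagen-positive members with a median of 27 and a maximum of 201 UMIs. Msln, the surface glycoprotein mesothelin, was detected in 77 of them with a median of 12 UMIs, and Lrrn4, a leucine-rich repeat membrane protein, in 79 with a median of 8. These genes chose the cells and their levels are no finding. On the GRCm38 build, Upk3b lies at chr5:136038496-136046487 on the plus strand, Msln at chr17:25748613-25754378 on the minus strand and Lrrn4 at chr2:132868305-132880891 on the minus strand. At the edge of the rule, 7 members held exactly 3 UMIs of the 3 genes, and 16 further cells under the limit for Psmb11 and Prss16 had 2 genes with 1 UMI each. The highest member had 0.0977% of UMIs on Psmb11 and Prss16, and the lowest of the 29 cells left out by that limit had 0.107%. All 29 were of 1 week, and 19 of them had at least 0.3% collagen and Dcn.

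RNA of these genes was also found outside the members. Msln was detected in 14.9% and 15.9% of other 1-week cells with at least 0.1% Psmb11 and Prss16 (medians of 6506 and 6164 UMIs per cell) and in 11.2% and 14.7% of 1-week cells with at least 0.1% T cell receptor, Cd3e and Cd8a RNA (6798 and 8808 UMIs). Of 1-week non-member cells with at least 0.3% collagen and Dcn, 21.8% and 22.1% held a UMI of at least 1 of the 3 genes (medians of 10847 and 8900 UMIs). These cells were left out of the fibroblasts below, which were therefore chosen for the lack of such RNA. The part of free RNA in these shares was not tested. At least 2 of the 3 genes were detected in 3.15% and 3.14% of the first of these classes and in 1.12% and 4.0% of the second. In the third class, that of collagen and Dcn, they were detected in 4.95% and 4.43%.

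The shares of members differed between the ages. Members made up 2.00% of cells in 1-week replicate 1 (exact 95% binomial interval 1.42 to 2.75) and 2.59% in replicate 2 (1.83 to 3.55). At 16 weeks they made up 0.361% (0.145 to 0.742) and 0.422% (0.258 to 0.651). The intervals cover counting error only, and those of the 1-week and 16-week wells did not overlap. The sort set the ratio of EpCAM1-positive to EpCAM1-negative cells at each age, so a share of all cells depends in part on it. Counted as collagen-positive members, the shares were 1.84% and 2.45% at 1 week and 0.103% and 0.317% at 16 weeks.

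The same order was found relative to the fibroblasts of the same well. Fibroblasts were cells with at least 0.3% of UMIs on Col1a1, Col1a2, Col3a1 and Dcn and no UMI of the 3 mesothelium genes, 237 and 211 cells at 1 week and 523 and 1309 at 16 weeks. There were 14.3 and 16.6 collagen-positive members for every 100 fibroblasts at 1 week, and 0.382 and 1.15 at 16 weeks. This ratio also depends on the fibroblast count, which was 237 and 211 of 1846 and 1430 cells at 1 week. At 16 weeks it was 523 and 1309 of 1939 and 4738 cells. Of non-member cells with at least 0.3% collagen and Dcn, 21.8% and 22.1% at 1 week were left out of that count. At 16 weeks 8.41% and 7.29% were left out. The part of either in the ratio was not tested. Fewer mesothelial cells per thymus, and fewer released or attached during dissection, cannot be told apart.

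The 74 members of 1 week were then compared with the 448 fibroblasts of 1 week. UMIs were summed per class and well and expressed as CPM (counts per 1000000 UMIs of the class), and a gene was called where its ratio was at least 4-fold in the same direction in both wells, among 13805 genes with at least 20 UMIs. By this rule 402 genes, 2.91% of those tested, were higher in mesothelial cells and 482, or 3.49%, were lower. With the 69 collagen-positive members of 1 week the counts were 387 and 534, of which 357 and 425 were shared with the first. Of the 482 lower genes 234 had no UMI in the mesothelial cells of at least 1 well, so their call depends on the count of 0.5 added to each sum. The classes differed in depth, with medians of 18429 and 24353 UMIs per mesothelial cell and 9747 and 8720 per fibroblast. With all cells thinned to 2000 UMIs the rule called 118 and 183 genes, and with replicate 1 alone it called 776 lower genes.

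In the class sums, Upk1b, Gpm6a and Lrp2 had the largest ratios among genes outside the rule. Upk1b, a tetraspanin that partners uroplakins (chr16:38773184-38800328, minus strand), stood at 477 and 482 CPM in mesothelial cells and at 1.27 and 1.78 CPM in fibroblasts. Gpm6a, a membrane glycoprotein, stood at 404 and 480 against 1.27 and 1.48 CPM. Lrp2, the endocytic receptor megalin, stood at 129 and 123 against 0.255 and 0.296 CPM, a fibroblast level that rests on 1 UMI in each well. The log2 ratio was 8.19 ± 0.31 for Upk1b, 8.19 ± 0.02 for Gpm6a and 8.26 ± 0.20 for Lrp2 (mean and SD of 2 wells). For each of these genes both mesothelial values lay far above both fibroblast values. The mean of per-cell CPM, which gives every cell the same weight, was also taken. The log2 ratios were then 7.81 for Upk1b, 7.12 for Gpm6a and 6.32 for Lrp2. The order changed, and among the genes named here Egfl6 had the largest ratio, at 8.11. Gjb5 at 7.79, Galnt6 at 7.56, Gm45263 at 7.20 and Gm45264 at 7.13 lay between Upk1b and Gpm6a.

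Muc16, a very large membrane mucin of wet epithelial surfaces, stood at 123 and 146 CPM against 0.255 and 0.889. Gjb5, a gap junction connexin, stood at 133 and 94.3 against 0.764 and 0.296 CPM. Krt19, a keratin of simple epithelia, was at 1021 and 1023 against 6.11 and 7.70 CPM, a log2 ratio of 7.19 ± 0.23. With per-cell means the log2 ratio was 6.25 for Krt19 and 6.48 for Muc16, where the sums gave 7.74. Dmkn, a secreted epithelial protein, was at 424 and 590 against 3.82 and 5.93 CPM. Tmem151a, a membrane protein, was at 188 and 171 against 2.04 and 1.78 CPM. All of these were higher in both wells.

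Egfl6, a secreted matrix protein, had 38 and 25 UMIs in mesothelial cells and none in fibroblasts, which makes it at least 88.3-fold higher, taking a floor of 3 counts over both wells. Gm45263, Gm45264 and Gm45265 also had no fibroblast UMI. They are annotated within the Gpm6a locus on the same strand, so their counts cannot be told apart from Gpm6a reads. The remaining names among the top 20 were Dhrs9, a retinol dehydrogenase, Galnt6, an enzyme of mucin glycosylation, Gata4, a transcription factor, and Fam84a and Fam180a, with mean log2 ratios from 6.42 for Gata4 to 7.35 for Dhrs9 and fibroblast sums of 0 to 3 UMIs per well. At these sums single wells differed widely, with 8.34 and 5.11 for Galnt6, 7.90 and 5.37 for Fam180a, 7.70 and 5.69 for Fam84a, 5.30 and 7.54 for Gata4 and 8.08 and 6.62 for Dhrs9.

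**Figure D2:**
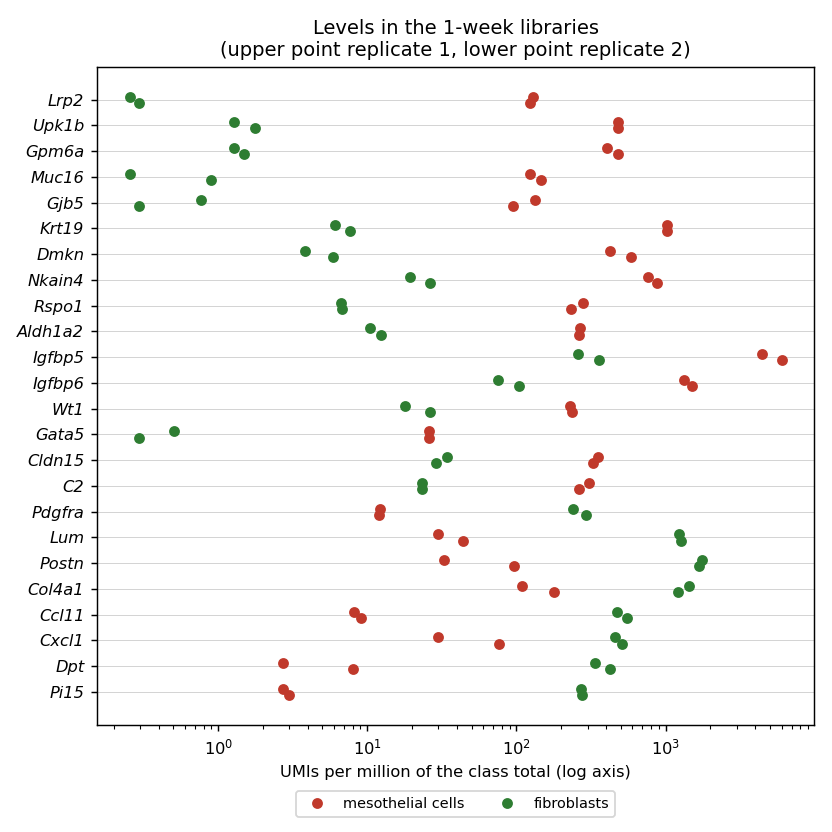
Level of 24 genes in 1-week mesothelial cells (red, 74 cells) and fibroblasts (green, 448 cells) as CPM on a log axis, with the upper point of each pair replicate 1 and the lower point replicate 2. The classes do not overlap for any gene shown. The gap is wider for Krt19, at 1021 and 1023 against 6.11 and 7.70, than for Igfbp5, Wt1, Cldn15 and C2.

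Among the mesothelial list of 22 genes, 21 had enough counts, 16 were higher by the 4-fold rule and none was lower, with a median log2 ratio of 4.09 against -0.10 over all genes tested. The same 16 of 21 were counted with the collagen-positive members. Nkain4, a sodium pump interacting protein, was at 768 and 871 CPM against 19.4 and 26.4. Wt1, the Wilms tumour factor that marks mesothelium, was at 230 and 236 against 17.8 and 26.4 CPM. Bnc1, a zinc finger factor, was at 56.9 and 53.1 against 3.57 and 2.67 CPM, and Cldn15, a claudin, at 355 and 328 against 34.4 and 28.7. All of these genes were higher in both wells.

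The list members that did not pass were Krt8, Krt18, C3, Prg4 and Has1, with log2 ratios of -0.12, -0.64, 1.53, 1.55 and -0.47. The wells disagreed for Prg4, at 3.10 and -0.01, and for Has1, at 0.92 and -1.86. Calb2, the calretinin gene used to mark human mesothelium, had too few UMIs, with 0 in mesothelial cells and 18 in fibroblasts. Krt8 and Krt18, the keratin pair of simple epithelia, were detected in every fibroblast and every mesothelial cell of 1 week. The part of free RNA in their levels was not tested.

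Within the 69 collagen-positive members of 1 week the genes were not evenly held. Krt19 ranged from 0 to 5251 CPM per cell with a median of 794, and had a UMI in 67 cells. Nkain4 ranged from 0 to 2714 with a median of 880 CPM and had a UMI in 65 cells. Wt1 had a UMI in 58 cells and a median of 219 CPM. By contrast Slpi, a secreted protease inhibitor, had a UMI in 21 cells and reached 2171 CPM, and Krt14, a basal keratin, had a UMI in 33 cells and reached 3364 CPM. Depth differed between cells, so the share with a UMI is not a share of expressing cells.

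The connective tissue genes were only partly shared with fibroblasts. The collagens and Dcn of the rule, used to choose the fibroblasts, were present in both classes, with Col1a1 at 4107 and 4079 CPM in mesothelial cells and 5922 and 5665 in fibroblasts. Of the 14 fibroblast genes that the rule had not used, 8 were lower and 1, Dpp4, was higher, with a median log2 ratio of -2.62. Pdgfra, the receptor that marks fibroblasts, was at 12.2 and 12 CPM against 240 and 292. Lum, a proteoglycan, was at 29.8 and 44.1 against 1231 and 1269 CPM, and Postn, a matrix protein, at 32.5 and 96.3 against 1766 and 1671. Col6a1, Pdgfrb, Mfap4, Pi16 and Thy1 were lower as well. Fbln1, Fbln2, Loxl1, Mfap5 and Col5a1 did not pass, with log2 ratios of 0.48, 1.91, 0.53, -0.87 and -1.97.

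The 10 genes with the lowest ratios were Sele, Pi15, Ret, Dpt, Osr2, Aspn, Ccl11, Spon1, Eng and Lsamp. Pi15, a secreted protein of the CAP family, had 2 and 3 UMIs in mesothelial cells and 1068 and 926 in fibroblasts, or 2.71 and 3.01 against 272 and 274 CPM. Ccl11, the eosinophil chemokine eotaxin, was at 8.13 and 9.02 CPM against 476 and 550. Dpt, a matrix protein of the dermis and other connective tissue, was at 2.71 and 8.02 against 337 and 426 CPM. Ret, a receptor tyrosine kinase, had no UMI in mesothelial cells and 317 in fibroblasts, at least 25.1-fold lower by the floor of 3 counts over both wells. Eng and Lsamp were at 0 in replicate 1 and at 9 and 7 UMIs in replicate 2, so their ratios differ widely between wells.

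Matrix and surface genes followed in part. Of 12 basement membrane genes measured, 2 were lower and none was higher, with a median log2 ratio of -1.27. These were Col4a1 and Col4a2, the chains of basement membrane collagen, with Col4a1 at 110 and 178 CPM against 1427 and 1206. In the glycocalyx list, 2 of 9 genes not in the rule were higher, Muc16 and Sdc4, a heparan sulphate proteoglycan at 347 and 338 against 65.2 and 72.0 CPM. Has2, a hyaluronan synthase, was lower at 8.13 and 14 against 78.2 and 91.0 CPM. Of 16 junction genes, 3 were higher (4 with collagen-positive members, which added Cgn at a log2 ratio of 2.11) and none was lower, namely Cldn3 at 228 and 207 against 3.82 and 7.70 CPM, Cldn15, and F11r, a tight junction receptor, at 111 and 128 against 20.9 and 22.8. The E-cadherin gene Cdh1 and the N-cadherin gene Cdh2 did not pass, with log2 ratios of -0.19 and -0.38, and -1.35 and -0.46 with collagen-positive members only. With all members their wells had opposite signs, at -0.42 and 0.05 for Cdh1 and -1.20 and 0.43 for Cdh2. Has2 was at a log2 ratio of -2.90 with all members and -3.83 with these.

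Epcam shows what the low-collagen cells add. Over all 74 members it was at 230 and 83.2 CPM against 100 and 91.3 in fibroblasts, a mean log2 ratio of 0.54 from wells of opposite sign, and without the 5 low-collagen cells of 1 week the ratio was -1.0. The fibroblasts had no limit on epithelial RNA, so these ratios are no comparison of Epcam between the classes.

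Retinoic acid is made by aldehyde dehydrogenases, of which Aldh1a2 is the enzyme of the embryonic body wall and mesothelium. Of 12 retinoid genes measured, 3 were higher and none was lower, with a median log2 ratio of 0.08. Aldh1a2 was at 266 and 262 CPM against 10.4 and 12.4, Aldh1a1 at 123 and 104 against 7.39 and 12.4, and Rarres2, the gene of the chemoattractant chemerin, at 1546 and 1624 against 328 and 322. Aldh1a3, a further enzyme of the family, had a log2 ratio of -2.65 with an SD of 1.56 and did not pass in both wells.

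Growth factor genes differed in both directions, with 6 of 24 measured genes higher and 3 lower. Igfbp5, an insulin-like growth factor binding protein, was at 4428 and 6024 CPM against 258 and 356, a log2 ratio of 4.09 ± 0.01. Igfbp6 was at 1325 and 1512 against 75.4 and 104 CPM, and Igfbp2 at 112 and 110 against 15.8 and 11.6. Rspo1, a secreted enhancer of WNT signalling, was at 282 and 233 against 6.62 and 6.82 CPM, and Fgf9 at 23.0 and 27.1 against 0.509 and 1.48. Fgf1 was higher as well. The lower genes were Rspo3, at 6.77 and 4.01 against 48.1 and 44.2 CPM, Dkk2, a WNT inhibitor, and Igf2, with 2 UMIs in mesothelial cells and 356 in fibroblasts.

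Of 20 genes of thymocyte support and chemokines, none was higher and 5 were lower, with a median log2 ratio of -1.51. Besides Ccl11 these were Ccl7, Cxcl1, Fgf7 and Fgf10. Cxcl1, a neutrophil chemokine, was at 29.8 and 76.2 CPM against 457 and 507, a log2 ratio of -3.32 that was -4.02 with collagen-positive members. Fgf10, a mesenchymal growth factor for thymic epithelium, was at 0 and 2.01 against 58.3 and 49.8 CPM, and Fgf7 had no UMI against 117 in fibroblasts, which with 3 counts as the floor is at least 9.27-fold lower. Il33, an alarmin cytokine, was at 98.9 and 130 against 135 and 148 CPM. Il7 and Ccl25, which serve developing T cells and are made by thymic epithelium, had log2 ratios of -0.65 and -1.55 and did not pass.

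Of 25 transcription factor genes measured, 7 were higher and 3 were lower, with a median log2 ratio of -0.01. The higher genes were Wt1, Bnc1, Gata4, Gata5, Tbx5, Tbx18 and Osr1, all of them known from the coelomic lining or heart. Gata5 was at 25.7 and 26.1 CPM against 0.509 and 0.296, Osr1 at 465 and 313 against 47.1 and 41.2, and Tbx18 at 94.8 and 67.2 against 19.4 and 13. Gata6 did not pass at 282 and 344 against 93.5 and 100.2 CPM. The lower genes were Nr2f1, at 2.71 and 4.01 against 102 and 141 CPM, Prrx1, a limb and face mesenchyme factor, at 55.5 and 68.2 against 354 and 330, and Hoxb5, which had no UMI against 27 in fibroblasts. By the floor of 3 counts over both wells Hoxb5 was at least 2.14-fold lower, so its call rests on the added 0.5.

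In complement and innate defence, 2 of 14 genes were higher, with a median log2 ratio of 0.69. They were C2, a complement protease, at 306 and 264 CPM against 23.4 and 23.4, and Slpi at 65.0 and 73.2 against 3.57 and 1.48. C3, the central complement protein, was at 898 and 1136 against 334 and 365 CPM and did not reach 4-fold. None of 12 cell cycle genes passed, with a median log2 ratio of 0.08. None of 12 immediate early and heat shock genes passed either, and their median log2 ratio was -1.04, with Fosb at 440 and 593 against 1471 and 1426 CPM. Since these genes respond to tissue handling, the part of preparation in that difference was not tested.

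Markers of other cell types were counted for the same cells. Of 13 thymic epithelium markers not in the rule, Krt14 was higher and none was lower, at 213 and 192 CPM against 14.3 and 21.0, and the 13 genes summed to 4773 and 3477 CPM in all members and 2147 and 2634 in collagen-positive members, against 3509 and 3512 in fibroblasts. The rule limited epithelial RNA in the members and not in the fibroblasts, so these sums are no comparison. Of 8 endothelial markers, Kdr and Esam were higher and Emcn was lower. Kdr, a receptor for VEGF, was at 117 and 68.2 CPM against 5.60 and 7.11, while Pecam1 and Cdh5, which define endothelium, had 7 and 5 UMIs in mesothelial cells. None of 6 mural markers passed, although their median log2 ratio was -2.39, and with collagen-positive members Cspg4 was lower at -2.77. The fibroblast class, chosen by collagens alone, held Rgs5, a pericyte gene, at 536 and 428 CPM. None of 8 haematopoietic markers measured passed, and the list of 10 summed to 88.0 and 80.2 CPM against 127 and 95.1.

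**Figure D3:**
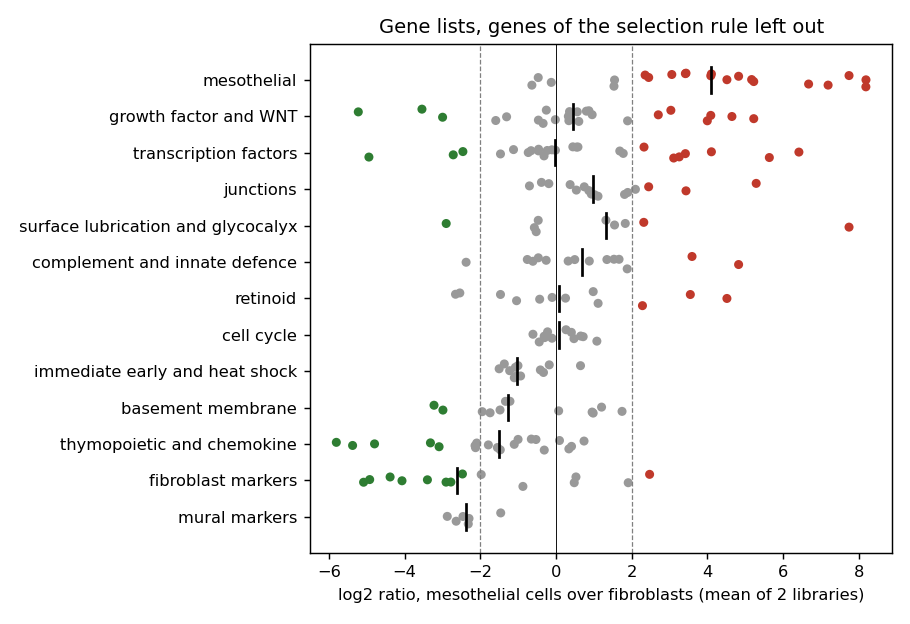
Log2 ratio of mesothelial cells over fibroblasts (mean of 2 wells of 1 week) for the genes of 13 lists, genes of the selection rule left out. Red and green points passed 4-fold in both wells, grey points did not, black bars are medians, and dashed lines mark a log2 ratio of 2 and -2. The mesothelial list has its median at 4.09 and the fibroblast markers at -2.62.

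The tags were not used to choose the cells. The podoplanin tag, which reads the mucin-type glycoprotein of lymphatic vessels, fibroblasts and mesothelium, had medians of 596 and 517 counts per mesothelial cell and 5 and 4 per fibroblast in replicates 1 and 2. The middle 50% of mesothelial cells held 156 to 980 and 88 to 1552 counts, and that of fibroblasts 1 to 18 and 1 to 15, so these ranges did not overlap. On cTEC-type cells (at least 0.1% of UMIs on Psmb11 and Prss16, none of the 3 mesothelium genes) the medians were 59 and 62. The gene itself, Pdpn, was at 211 and 229 CPM against 76.4 and 102, a log2 ratio of 1.32 ± 0.21 that did not pass 4-fold.

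CD200, an immunoglobulin family surface protein, had medians of 22 and 25 counts on mesothelial cells and 1 and 1 on fibroblasts. Medians of this tag on cTEC-type cells were 22 and 23. Its gene Cd200 was at 127 and 133 CPM against 51.2 and 41.2. CD73, a surface enzyme that makes adenosine, had medians of 5 and 4 counts against 1 and 1, while its gene Nt5e had 3 UMIs in mesothelial cells and 5 in fibroblasts, too few to compare. The CD73 tag had medians of 10 and 9 on cTEC-type cells, above those of mesothelial cells. Tag totals of cTEC-type cells had medians of 4058 and 4186, against 1205 and 1266. Scaled to the tag total as described below, CD200 was 1.31 and CD73 0.80 (log2) above cTEC-type cells. CD49a, the integrin alpha-1 chain that binds collagen, had medians of 2 and 2 counts on mesothelial cells and 12 and 13 on fibroblasts. Its gene Itga1 was lower too, at 13.5 and 39.1 CPM against 238 and 227. Tag and gene lay in the same direction for podoplanin, CD200 and CD49a.

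**Figure D4:**
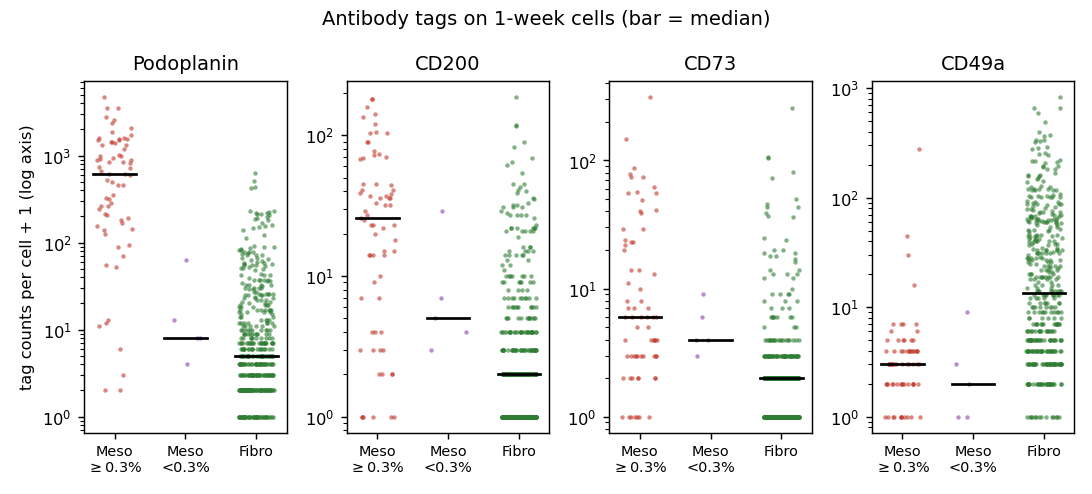
Raw tag counts plus 1 per cell on log axes for podoplanin, CD200, CD73 and CD49a on 1-week cells of both wells, for collagen-positive members (69 cells), low-collagen members (5 cells) and fibroblasts (448 cells), with bars at the medians. Podoplanin is high on most collagen-positive members, with 7 cells at 12 counts or fewer. The CD49a median is higher on fibroblasts, whose counts spread widely.

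For all 27 tags, the count of a cell was scaled to the mean tag total of all cells, 1 was added and the log2 taken. A tag was called where both wells had the same sign and the mean difference was at least 0.5. By this rule 3 tags, or 11.1%, were higher on mesothelial cells, namely podoplanin with a difference of 4.31 ± 0.40, CD200 with 2.36 ± 0.03 and CD73 with 1.68 ± 0.12 (mean and SD of 2 wells), and 17 tags, or 63.0%, were lower. The largest of the lower differences were -4.35 ± 0.38 for CD49a and -3.44 ± 0.12 for MadCAM1. MadCAM1 had low medians, of 2 and 1 counts on mesothelial cells and 4 and 5 on fibroblasts. Among the lower tags CD31, CD133 and CD300LG had medians of 0 in both classes and wells. Podoplanin alone took 25.3% and 33.2% of the members' tag counts (42.9% and 65.0% in collagen-positive members), against 2.30% and 2.07% in fibroblasts, so that a division by the total lowers every other tag. Divided by the total without podoplanin, 5 tags were higher and 4 were lower, and by the centred log ratio 4 and 6. CD49a and MadCAM1 were lower and podoplanin, CD200 and CD73 higher under each of these scalings, but the sizes moved. With the total without podoplanin the differences were 5.65 for podoplanin, 3.70 for CD200, 2.97 for CD73, -3.33 for CD49a and -2.66 for MadCAM1. By the centred log ratio they were 4.98, 2.24, 1.51, -2.70 and -1.59 in the same order. Podoplanin was at 4.90 with collagen-positive members and the full total.

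Other tags were compared as counts per cell beside tag totals that had medians of 1205 and 1266 on mesothelial cells and 224 and 212 on fibroblasts. The MHCII tag had medians of 68 and 68 counts on mesothelial cells and 75 and 70 on fibroblasts, and 2391 and 2495 on cTEC-type cells. Sca1 had 9 and 9 in both classes, and the Epcam tag 9 and 8 against 10 and 9. CD63, a tetraspanin of vesicles, had 32 and 29 against 8 and 7. Its scaled difference was -0.08 by the total, 1.03 by the centred log ratio and 1.24 by the total without podoplanin. CD54, the adhesion molecule ICAM1, had medians of 27 and 29 against 14 and 14, while its scaled difference was -1.24 by the total and 0.17 and 0.067 by the other scalings. Ly6D, which is among the 27 tags, had no count in any cell of these classes.

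The 17 collagen-positive members of 16 weeks, 2 and 15 cells, held 27913 and 164381 UMIs in all, against 641774 and 893240 in the 69 of 1 week. Of these 17 cells 3 were among the highest doublet scores, including both of replicate 1, and none of the 69 was. Without them C3 was at 6116, Slpi at 1482, Muc16 at 590 and Wt1 at 458 CPM over 14 cells. The podoplanin tag ranged from 15 to 1592 counts on the 17 cells with a median of 330, and CD200 had a median of 28. CD73 had a median of 1 (0 to 175), against 5 and 4 on the collagen-positive members of the 1-week wells. Sca1 had a median of 106 (1 to 3271), against 9 and 8. Wt1 was at 447 CPM (exact 95% Poisson interval 358 to 552), Upk1b at 374 (293 to 472), Gpm6a at 858 (732 to 999) and Krt19 at 780 (660 to 915). The 69 members of 1 week, summed in the same way, had Wt1 at 264 (239 to 291), Upk1b at 543 (506 to 581), Gpm6a at 506 (471 to 543) and Krt19 at 1148 (1095 to 1203). These intervals cover counting error only, each age is 1 pool, and differences between the ages were not tested.

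Some genes lay farther apart between the ages. Muc16 was at 154 CPM at 1 week and 577 (475 to 695) at 16 weeks, and Krt7 at 377 and 67.6 (36.0 to 116). With the sums of the ages compared by the 4-fold rule, a comparison added after seeing the data, 127 of 8573 genes with at least 20 UMIs (1.48%) were higher at 16 weeks and 349 (4.07%) were lower. Without the 3 cells of high doublet score 141 and 426 of 8500 genes were higher and lower. Of 14 complement and defence genes 10 had enough counts and 4 were higher (4 also without the 3 cells), with a median log2 ratio of 1.43 against 0.02 over all genes. They were C3 at 1140 and 6194 (5847 to 6556), C4b at 59.9 and 603 (499 to 724), Cfb at 35.8 and 286 (216 to 372), and Slpi at 78.8 and 1602 (1428 to 1791). Cd55, a complement inhibitor, was at 44.3 and 46.8 (21.4 to 88.8), and Cd59a, Hp and Lcn2 had 10 or fewer UMIs at 1 week and none at 16 weeks. Col5a1, a fibrillar collagen gene, was at 199 and 10.4 (1.26 to 37.6). Fbln2 was at 1207 and 328 (252 to 419). Ube2c, a gene of dividing cells, had 155 UMIs in 21 of 69 cells of 1 week and none in the 17 cells of 16 weeks (101 CPM against an interval that reaches 19.2). Top2a, a topoisomerase of dividing cells, was at 104 and 15.6 CPM (3.22 to 45.6).

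The 12 cell cycle genes summed to 715 and 590 CPM in the collagen-positive members of the 1-week wells and to 179 and 128 in those of the 16-week wells. Fibroblasts of the same wells were at 737 and 543 and at 160 and 114 CPM. With each cell thinned to 2000 UMIs, 27 of 69 members of 1 week and 4 of 17 of 16 weeks held a UMI of these genes (46 and 5 held at least 3 before thinning). Among fibroblasts the thinned shares were 48.5% and 51.7% at 1 week and 19.3% and 21.6% at 16 weeks. A thinned share of this size lies near the level of 1 UMI. The summed level was lower at 16 weeks in both classes.

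**Figure D5:**
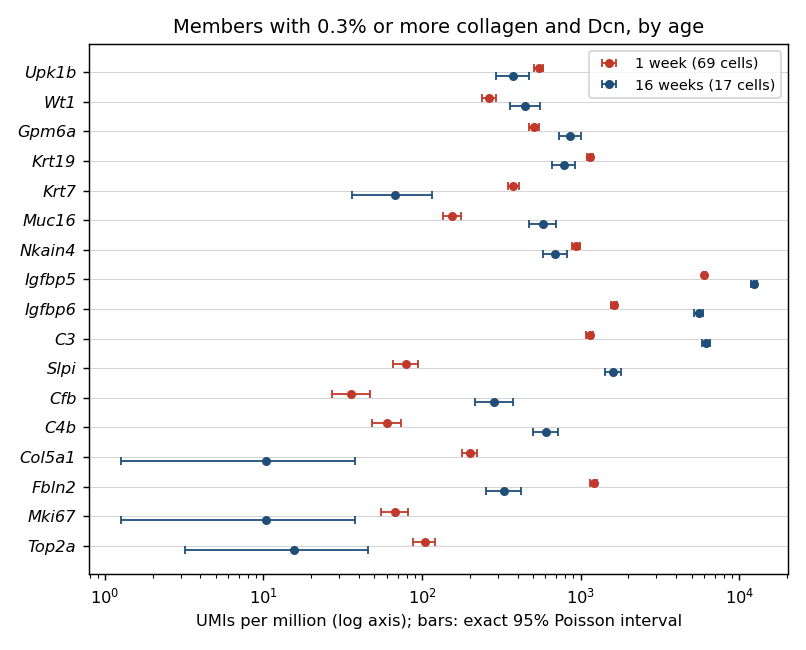
Level of 17 genes in collagen-positive members of 1 week (red, 69 cells) and 16 weeks (blue, 17 cells) as CPM on a log axis, summed over the 2 wells of an age, with exact 95% Poisson intervals that cover counting error only. C3 and Slpi lie to the right at 16 weeks, and Krt7, Col5a1, Mki67 and Top2a to the left.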

How the data were processed

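The authors aligned reads with STARsolo 2.7.9a to mm10 with Ensembl models, and deposited whole-number counts per cell of RNA and tags, not normalised. The lowest cell held 2000 UMIs. The labels and the methods name different versions of the reagent kit. Library and age were read from the ending of each cell name. Gene symbols and coordinates came from GENCODE M21 (GRCm38), which matched 55141 of 55487 identifiers.

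The rule, the members and the gene lists were chosen with earlier results of these data known. Named genes were the 20 with the largest and the 10 with the lowest mean log2 ratio among called genes with a UMI in at least 20% of the cells of the higher class, with the list genes past 4-fold or defining a list, and the genes of the tags. Sums had 0.5 added before the log2 ratio. Doublets were scored with scrublet in scanpy 1.11.5 on Python 3.11.15, whose automatic limit marked 14 cells and had not worked. The highest scores were instead removed as an alternative, 253 cells in all, with a share that grew with the cells of a library. In counts simulated for this comparison over 13559 genes, 100% of genes raised 16-fold and 94% of genes lowered 16-fold were called, with 10 false calls. Alternatives covered marker limits, collagen limits, scaling, thinning, filters and single wells.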

Additional observations from a re-analysis of the deposited data

How the results depend on the processing

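No paired test was run, since the results come from no test. Ratios were taken within a well, and a call needed both wells of the 1 pool. The number of members went from 101 to 15 with low-collagen members only, and stayed between 71 and 97 under the other member rules tried, including 86 with collagen-positive members, an alternative chosen after seeing the data. Higher genes went from 402 to 1182 without a filter on low counts and to 118 with cells thinned to 2000 UMIs, where fewer counts were compared. Lower genes went from 482 to 183 with thinning. Single wells gave 404 to 448 higher genes and 640 to 776 lower genes. The 384 genes higher in low-collagen members shared 55 with the 402. Tags higher went from 3 to 5 with low-collagen members and to 5 with a total that leaves out podoplanin, the latter chosen after seeing the data. Tags lower went from 17 to 6 by the centred log ratio, to 11 by medians and to 4 with that total. Single wells gave 3 higher tags each and 16 to 17 lower tags. With low-collagen members only, differences reversed to -3.97 for podoplanin, -1.78 for CD200 and -1.56 for CD73. CD9 reversed to 0.13 by the centred log ratio and 0.29 with the total without podoplanin, and CD54 to 0.17 and 0.067. Of 189 log2 ratios of 27 named genes under 7 alternatives other than single wells, 61 moved by over 1 SD of the wells and none reversed. With low-collagen members only, the log2 ratio fell to 0.03 for Dmkn, 1.60 for Upk1b and 1.83 for Krt19. Of 120 differences of 12 tags under 10 alternatives other than single wells, 74 moved and 7 reversed. Depth limits the 16-week values, which rest on 17 cells.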

Other observations

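Among the 69 collagen-positive members of 1 week, 7 had 12 or fewer counts of the podoplanin tag and the other 62 had 51 or more. This limit was chosen after the values were seen, and no test was made. The 7 cells were 2 and 5 in replicates 1 and 2. They were not shallow, with a median of 32976 UMIs against 18890.5 in the 62. Their tag totals were 67 to 330 counts with a median of 181. Those of the 62 were 138 to 9288 with a median of 1267, so the ranges overlapped. The totals include the podoplanin tag, on which the 7 cells were picked. Pdpn RNA was at 278 CPM in the 7 cells (exact 95% Poisson interval 211 to 359) and 246 (220 to 274) in the 62. Msln was at 28.8 CPM (10.5 to 62.6) against 1494 (1429 to 1562), and Muc16 had no UMI (interval up to 17.7 CPM) against 179 CPM. Upk3b at 1054 (920 to 1203) against 1930 CPM and Krt19 at 1016 (884 to 1162) against 1169 were present in all 7 cells, and Wt1 was at 379 (300 to 472) against 246 CPM. Other mesothelium genes were at lower levels in the 7 cells, with Upk1b at 192 (137 to 261) against 598 CPM, Gpm6a at 168 (117 to 233) against 559, Cldn15 at 153 (105 to 216) against 420, Krt7 at 168 against 409 and Bnc1 at 14.4 (2.96 to 42.0) against 69.4. Nkain4 was at 906 (781 to 1045) against 939. Msln and Upk3b belong to the rule. Whether these 7 cells are a separate kind of mesothelial cell was not tested.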
